A study of Homo sapiens with 2 samples.

Results

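Peaks whose summit lay within 1000 bp of an end of at least 2 neighbouring protein-coding genes were described in PANC-1 cells, an established human pancreatic ductal adenocarcinoma line. They were the peaks of the DMSO list on chromosomes 1 to 22 and X for which the genes concerned did not overlap each other. This rule took 1221 of 15186 DMSO peaks (8.04%). They touched 1205 different gene pairs and 2288 of 19974 protein-coding genes in the RefSeq annotation of GRCh38.p14. A further 6625 summits lay at an end of 1 gene only, 374 at ends of genes that overlapped each other, and 6966 at no coding gene end. At 1162 of the shared peaks exactly 2 genes had an end in the window, at 57 there were 3 and at 2 there were 4.

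The study treated PANC-1 cells with the solvent DMSO or with inflachromene, a compound whose known targets are the chromatin proteins HMGB1 and HMGB2, and profiled chromatin by ChIPmentation, in which Tn5 transposase inserts the sequencing adapters on immunoprecipitated chromatin. Each treatment had 1 library from the same line, with 1 deposited peak list. Cells of both groups were fixed with 15 mM of the crosslinker EGS for 30 min, then with 1% formaldehyde for 10 min, and quenched with 125 mM glycine. Which protein was precipitated, how much inflachromene was used and for how long is not stated in the labels. Without replicates no test between treatments was made, and the differences below compare 2 libraries, not the conditions. A weaker peak in such data cannot tell fewer occupied cells from less signal per cell. Peaks at the ends of cell-type marker genes were also counted. In DMSO they were called at 4 of 6 epithelial genes (KRT8, KRT18, KRT19 and SOX9, not KRT7 or EPCAM). They were called at 3 of 3 mesenchymal genes (VIM, CAV1 and ZEB1) and at 1 of 4 leukocyte genes (CD68). Those counts were 3, 2 and 1 in inflachromene. Over all coding genes, 9133 of 19974 had any DMSO peak, and CD68 has an end at the shared EIF4A1/CD68 peak.

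Neighbouring human genes are often transcribed in opposite directions from start sites that lie close together. Such a bidirectional promoter is usually rich in CpG dinucleotides and lacks a TATA box, and it can serve housekeeping genes of DNA repair, mitochondria and translation. Where the start of a gene instead follows the 3′ end of its neighbour, or where 3′ ends face each other, the shared window holds a single promoter or none.

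Windows that hold both start sites of a head-to-head pair are printed first, because head-to-head pairs held most of the shared peaks. Each is the RefSeq promoter window of the first-named gene (GRCh38.p14, minus strand, 5′ to 3′), from 250 bases before to 50 bases after its start, so that its start is base 251. Capitals mark every match, on either strand, to 1 of 9 short motifs. These were GCATGC (the core of the NRF1 motif), CCGGAAG (bound by ETS factors), AAGATGGC (YY1), CCAAT (NF-Y) and GGGCGG (SP1), with TGACGTCA (CRE), TGANTCA (AP-1), CACGTG (the E-box) and TATAAA (the TATA box). A match is a run of letters, not an observed binding site. The pairs were picked after their values had been seen, from the pairs named in the text, for having both starts inside the window. The first 4 had a peak in both libraries.
SARS2/MRPS12: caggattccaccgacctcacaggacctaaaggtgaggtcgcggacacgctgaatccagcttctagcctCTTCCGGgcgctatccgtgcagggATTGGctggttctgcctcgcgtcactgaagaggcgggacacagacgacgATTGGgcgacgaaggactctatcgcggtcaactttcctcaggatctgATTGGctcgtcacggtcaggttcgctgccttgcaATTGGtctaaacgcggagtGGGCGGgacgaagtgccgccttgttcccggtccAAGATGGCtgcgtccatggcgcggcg
XRRA1/SPCS2: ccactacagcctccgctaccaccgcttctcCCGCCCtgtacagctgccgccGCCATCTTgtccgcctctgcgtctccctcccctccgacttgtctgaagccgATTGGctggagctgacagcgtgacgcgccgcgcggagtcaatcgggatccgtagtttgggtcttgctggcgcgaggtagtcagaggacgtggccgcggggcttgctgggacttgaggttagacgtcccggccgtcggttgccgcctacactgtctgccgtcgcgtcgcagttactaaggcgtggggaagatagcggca
RECQL/GOLT1B: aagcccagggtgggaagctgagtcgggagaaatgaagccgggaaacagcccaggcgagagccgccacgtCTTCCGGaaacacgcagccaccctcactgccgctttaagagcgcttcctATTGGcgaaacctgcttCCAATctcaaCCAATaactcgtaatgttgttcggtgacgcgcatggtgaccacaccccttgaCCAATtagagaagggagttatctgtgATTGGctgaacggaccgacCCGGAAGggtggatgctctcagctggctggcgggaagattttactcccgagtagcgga
HARS1/HARS2: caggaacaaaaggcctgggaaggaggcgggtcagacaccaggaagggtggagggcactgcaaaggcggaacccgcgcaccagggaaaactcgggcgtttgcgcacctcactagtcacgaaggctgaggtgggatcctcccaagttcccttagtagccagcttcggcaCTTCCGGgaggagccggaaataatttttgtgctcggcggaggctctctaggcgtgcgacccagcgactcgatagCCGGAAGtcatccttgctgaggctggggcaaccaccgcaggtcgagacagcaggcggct

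The SARS2/MRPS12 window (chr19:38930714-38931013) joins the genes of mitochondrial seryl-tRNA synthetase and a mitochondrial ribosomal protein. MRPS12 starts at base 70, the DMSO summit was at base 158 between both starts, and the window holds 4 CCAAT matches and 1 match each for ETS, YY1 and SP1. XRRA1/SPCS2 (chr11:74949042-74949341) includes a subunit gene of the signal peptidase, SPCS2, which starts at base 76, with the summit at base 144. In RECQL/GOLT1B (chr12:21501586-21501885), which holds the gene of a DNA helicase, GOLT1B starts at base 97, the summit was at base 191, and there are 5 CCAAT and 2 ETS matches. HARS1/HARS2 (chr5:140691321-140691620) joins the cytosolic and the mitochondrial histidyl-tRNA synthetase genes. HARS2 starts at base 166, the summit was at base 176, and both motif matches are to ETS.

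The other 4 windows are those of pairs with a peak in DMSO alone.
LRRIQ3/FPGT: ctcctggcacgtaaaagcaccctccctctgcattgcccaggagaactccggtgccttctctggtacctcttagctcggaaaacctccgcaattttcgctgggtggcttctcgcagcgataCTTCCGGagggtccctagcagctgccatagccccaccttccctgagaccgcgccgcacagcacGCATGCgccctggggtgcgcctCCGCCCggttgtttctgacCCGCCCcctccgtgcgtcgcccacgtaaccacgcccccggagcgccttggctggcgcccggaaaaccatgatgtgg
SCN11A/WDR48: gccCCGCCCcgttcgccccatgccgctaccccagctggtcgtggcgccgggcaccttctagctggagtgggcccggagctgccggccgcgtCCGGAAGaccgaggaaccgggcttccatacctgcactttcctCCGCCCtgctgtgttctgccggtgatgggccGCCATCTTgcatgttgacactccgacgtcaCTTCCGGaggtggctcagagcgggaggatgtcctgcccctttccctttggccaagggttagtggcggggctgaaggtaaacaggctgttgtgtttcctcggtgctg
PDZD11/KIF4A: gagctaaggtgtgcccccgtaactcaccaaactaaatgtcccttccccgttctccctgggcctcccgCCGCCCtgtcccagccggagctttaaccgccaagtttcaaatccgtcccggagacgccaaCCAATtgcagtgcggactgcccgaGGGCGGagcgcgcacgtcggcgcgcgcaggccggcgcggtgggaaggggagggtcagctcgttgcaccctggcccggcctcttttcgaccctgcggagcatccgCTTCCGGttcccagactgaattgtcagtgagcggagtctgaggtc
KARS1/TERF2IP: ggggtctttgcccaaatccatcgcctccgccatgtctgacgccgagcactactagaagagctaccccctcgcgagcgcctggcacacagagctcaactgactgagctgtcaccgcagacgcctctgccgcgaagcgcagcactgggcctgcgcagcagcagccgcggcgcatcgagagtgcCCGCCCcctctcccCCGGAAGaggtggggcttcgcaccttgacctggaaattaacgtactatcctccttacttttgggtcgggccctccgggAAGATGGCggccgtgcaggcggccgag

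LRRIQ3/FPGT (chr1:74198127-74198426) includes an enzyme gene of fucose metabolism, FPGT, which starts at base 185, with the summit at base 252. SCN11A/WDR48 (chr3:39051895-39052194) joins a sodium channel gene to that of a deubiquitinase cofactor, which starts at base 179, with the summit at base 228. PDZD11/KIF4A (chrX:70289878-70290177) holds the gene of a chromosome-bound mitotic kinesin, starting at base 74, with the summit at base 204. KARS1/TERF2IP (chr16:75647616-75647915) joins lysyl-tRNA synthetase to a telomere-bound protein, whose gene starts at base 143, with the summit at base 183. The windows were picked by hand, so nothing is read from how the 4 differ from those printed before them.

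The arrangement of the genes was not used to choose the peaks, and occupancy differed widely with it. Start and strand were known for 15812 of the coding genes. Of 1221 shared peaks, 714 lay at head-to-head pairs (starts facing), 217 at head-to-tail pairs, 11 at tail-to-tail pairs and 279 at pairs with a gene of unknown strand, which were not classed. Seen from the annotation, 3130 gene pairs had facing ends at most 2000 bp apart and could have held such a peak, and 1205 (38.5%, exact Clopper-Pearson 95% interval 36.8 to 40.2) did. A DMSO peak that met the rule was present at 695 of 865 head-to-head pairs (80.3%, 77.5 to 82.9). The share was 29.3% (26.1 to 32.6) of 776 head-to-tail pairs and 2.31% (1.24 to 3.92) of 563 tail-to-tail pairs. The other 926 pairs were not classed, and the share among them was 29.2% (26.2 to 32.2). These and all following intervals cover counting error only.

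The same order held in every gap class up to 1000 bp between the ends, where a summit anywhere in the gap would count. There, 688 of 814 head-to-head pairs (84.5%, 81.9 to 86.9), 207 of 420 head-to-tail pairs (49.3%, 44.4 to 54.2) and 9 of 368 tail-to-tail pairs (2.45%, 1.12 to 4.59) had a peak that met the rule. Head-to-head pairs with a gap of at most 100 bp were occupied less often, in 152 of 210 cases (72.4%, 65.8 to 78.3), than those with 201 to 400 bp, in 226 of 250 (90.4%, 86.1 to 93.8). Beyond 1000 bp the windows of both ends overlap only in the middle of the gap. The shares there were 13.7% at head-to-head, 5.62% at head-to-tail and 2.05% at tail-to-tail pairs. The part of the rule in these shares was not tested. Of the starts that belong to a head-to-head pair with a gap of at most 1000 bp, 84.8% (82.9 to 86.5, 1605 starts) had a DMSO summit within 1000 bp. Among 11477 starts of genes with no neighbouring coding gene end within 2000 bp it was 40.6% (39.7 to 41.6). All starts were scored with the same window, but at paired starts a peak of the neighbouring start can count too. A peak in a short gap counts for both starts, so paired starts are not independent and their interval is too narrow.

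**Figure D1:**
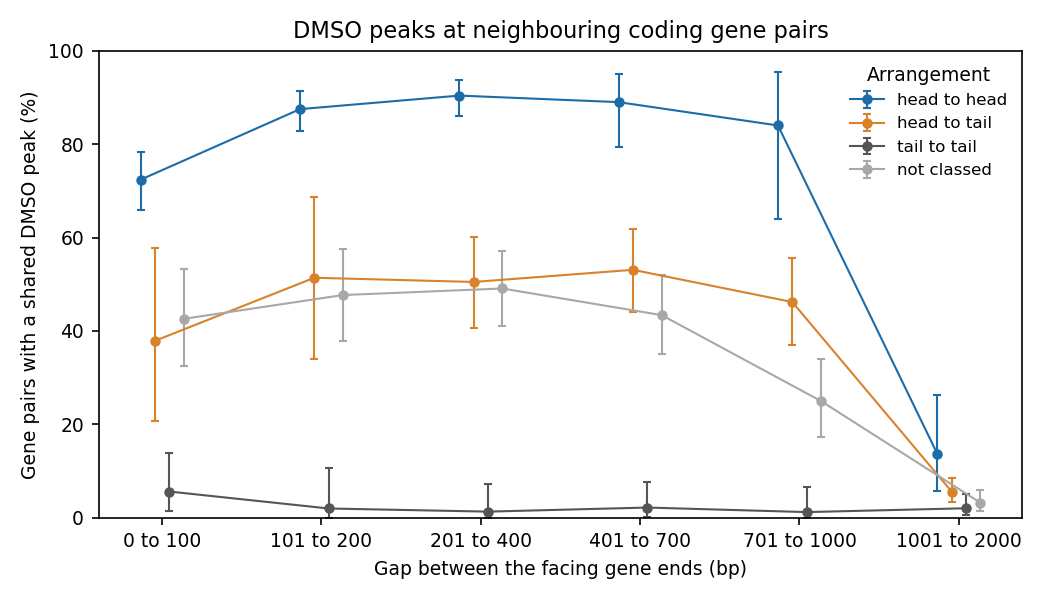
Share of neighbouring coding gene pairs with a DMSO peak shared by both ends, in percent, against the gap between the ends in bp, by arrangement; bars are exact 95% binomial intervals. Head-to-head pairs lie between 72.4 and 90.4% up to a gap of 1000 bp, and tail-to-tail pairs between 1.23 and 5.63%.

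Within head-to-head pairs the summits lay between the starts. The median gap at these 714 peaks was 184.5 bp, and 525 summits (73.5%) fell inside the gap. The median distance from the gap's midpoint was 50 bp, and the called peak covered both starts in 510 cases (71.4%). At head-to-tail pairs the summit was nearer to the start than to the 3′ end at 193 of 217 peaks and nearer to the 3′ end at 24. The median distances were 95 bp to the start and 479 bp to the 3′ end, and 25 peaks (11.5%) covered both ends. The 11 tail-to-tail peaks had a median distance of 488 bp to the nearer end and none covered both ends. EIF4A2/RFC4, a translation initiation factor gene and a replication factor gene whose 3′ ends lie 2 bp apart, was of this kind. Its DMSO peak (chr3:186790621-186790784) had its summit 769 bp from the end of EIF4A2 and held 18 fragments.

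**Figure D2:**
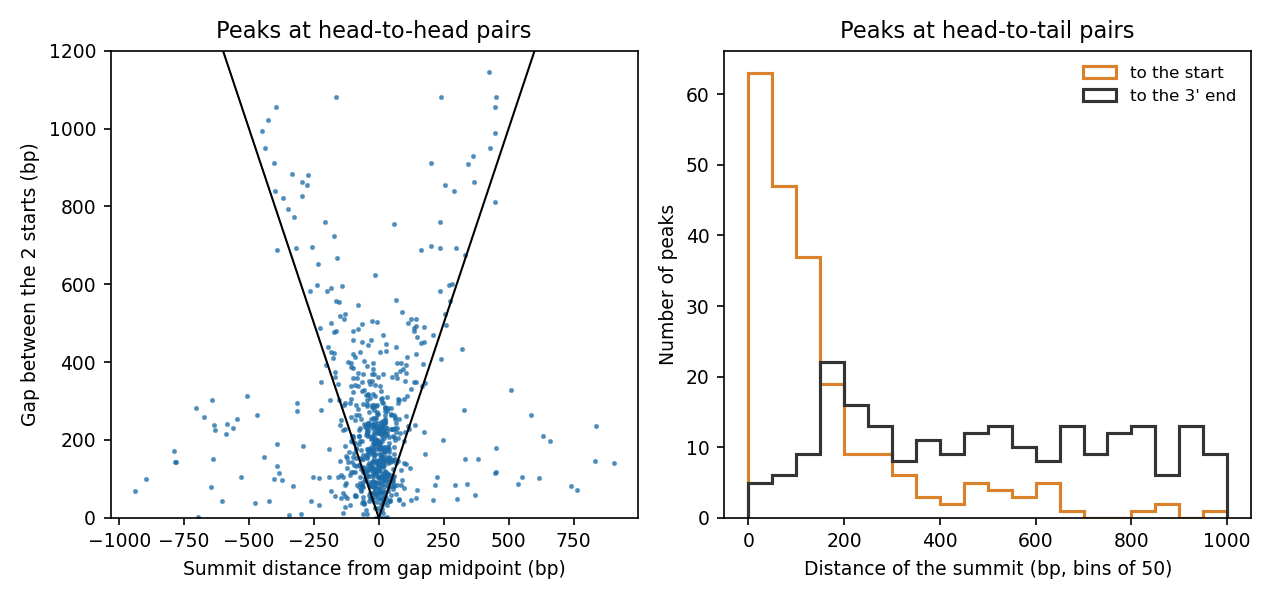
Left, head-to-head peaks (1 point each): distance of the DMSO summit from the midpoint of the gap in bp against the gap in bp, with black lines at both starts. Right, head-to-tail peaks: number of peaks by distance in bp from the summit to the start and to the 3′ end. Most points lie between the lines (525 of 714), and distances to the start pile up near 0 (median 95 bp) while those to the 3′ end spread out (median 479 bp).

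Signal is given in 2 measures. The fold enrichment is the authors' ratio of fragments over local background at the summit. The pileup is the whole number of fragments over the summit, recovered from the deposited values. The shared peaks had a median fold enrichment of 9.47 and a median pileup of 29 fragments (quartiles 21 and 43), against 8.90 and 26 at the end of 1 gene and 7.89 and 23 over all DMSO peaks. Head-to-head peaks had a median fold enrichment of 10.1 and 30 fragments. At head-to-tail pairs the values were 8.26 and 29, and at tail-to-tail pairs 5.99 and 24. Known single starts had 9.13 and 26. Within head-to-head pairs, strength went with the gap: the median pileup was 23 fragments at gaps of 0 to 100 bp, 28 at 101 to 200 bp, 39.5 at 201 to 400 bp and 35 beyond. The median fold enrichments in these classes were 8.63, 9.86, 11.9 and 10.1, and the median peak widths 342, 336, 442 and 443 bp.

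The strongest 8 shared peaks by DMSO fold enrichment were mostly head to head. OSGEP/APEX1 (chr14:20454606-20455295), the genes of a tRNA-modifying enzyme and of the main endonuclease of base excision repair, held 153 fragments in DMSO (exact Poisson 95% interval 130 to 179) and 88 in inflachromene (70.6 to 108), at 25.5-fold and 17.7-fold. The intervals did not overlap there. PAF1/MED29 (chr19:39390633-39391559), a subunit gene of the elongation complex that bears its name and a Mediator subunit gene, held 1139 (1070 to 1210) and 907 (849 to 968) fragments, the highest pileup of the DMSO list. Its DMSO background was 46.5 fragments, against a median of 2.21 over the shared peaks, so its fold enrichment of 24.0 rests on another scale of counts. SAMD4B also had an end in that window. TCTN3/ENTPD1 (chr10:95693844-95694338), a ciliary gene and an ectonucleotidase gene, held 95 and 70 fragments. NPC2/ISCA2 (chr14:74493322-74493798), genes of lysosomal cholesterol transport and mitochondrial iron-sulfur assembly, held 101 and 72. All of the 8 held fewer fragments in inflachromene, and choosing by the DMSO value favours that.

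LRCH4/FBXO24 (chr7:100586145-100586662), the latter an F-box protein gene, held 109 fragments in DMSO and 76 in inflachromene. NUP98/PGAP2 (chr11:3797471-3798131), genes of a nucleoporin and of an enzyme that remodels lipid anchors, held 193 and 150. The XRRA1/SPCS2 peak (chr11:74949027-74949389), whose window is printed above, held 61 and 38. CNPY2/PAN2 (chr12:56315891-56316481) was the head-to-tail pair among the 8, with 147 and 104 fragments; PAN2 encodes a subunit of an mRNA deadenylase.

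The first comparison with inflachromene asked which shared peaks were called again. An overlapping inflachromene peak was present at 1001 of 1221 (82.0%, 79.7 to 84.1), and 220 (18%) had none, against 35.5% without one over all 15186 DMSO peaks. At the end of 1 gene 75.1% (74.0 to 76.1) of 6625 peaks were called again, and at starts of 1 gene 76.7% (75.5 to 77.8) of 5353. Among shared peaks the share was 85.4% (82.6 to 87.9) at head-to-head, 76.5% (70.3 to 82.0) at head-to-tail and 45.5% (16.7 to 76.6, 5 of 11) at tail-to-tail pairs. At head-to-head peaks it was 77.0% (69.5 to 83.4) at gaps of 0 to 100 bp, 82.7% (77.2 to 87.3) at 101 to 200 bp, 94.3% (90.4 to 96.9) at 201 to 400 bp and 84.5% (76.0 to 90.9) beyond, the same order as that of the median pileups.

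Recall moved with strength, as the plot of overlap by strength shows. All DMSO peaks were ranked by fold enrichment and cut into 5 groups of like size; 413 of the shared peaks fell in the strongest group and 145 in the weakest. From the weakest to the strongest group, 44.1% (35.9 to 52.6), 59.6% (51.8 to 67.2), 76.8% (70.7 to 82.1), 94.9% (91.5 to 97.2) and 98.5% (96.9 to 99.5) of the shared peaks had an inflachromene peak. At the end of 1 gene the shares were 35.9%, 52.3%, 69.3%, 88.9% and 99.1%. Shared peaks were thus 5.99 to 8.27 percentage points higher in the 4 weaker groups and not higher in the strongest. Only in the fourth group from below did both intervals stay apart (87.2 to 90.4 for 1 gene). Median pileups differed within groups too, with 19 against 16 fragments in the weakest and 29 against 27 in the fourth, and their part in the difference was not tested.

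**Figure D3:**
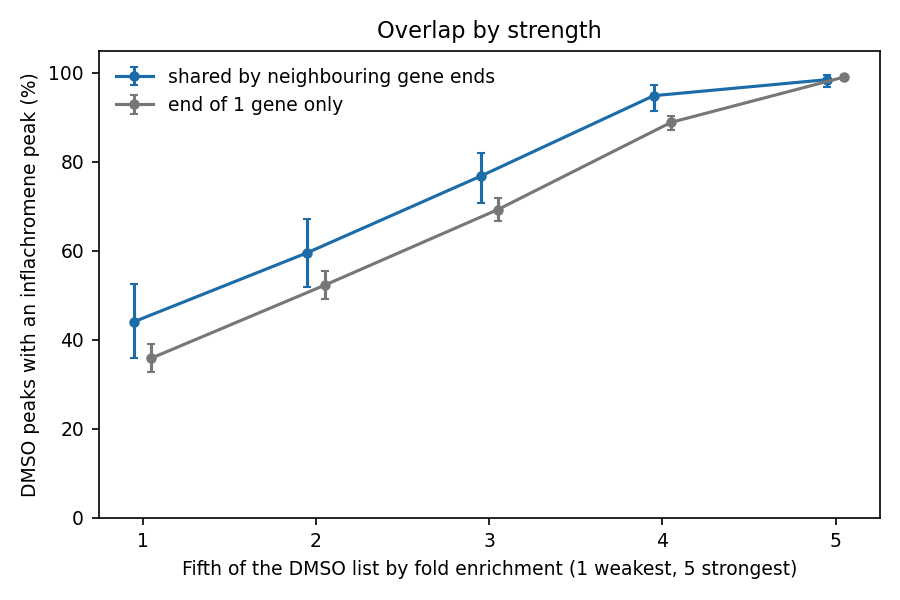
Percent of DMSO peaks with an overlapping inflachromene peak against the strength group of the DMSO list, for peaks shared by neighbouring gene ends (blue) and at the end of 1 gene (grey); bars are exact 95% binomial intervals. Both rise from the weakest to the strongest group, from 44.1 to 98.5% and from 35.9 to 99.1%.

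A pair was counted as occupied in a library where that library had a peak meeting the rule there, or one that overlapped such a peak of the other library. By this count 1023 of 3130 had a peak in both libraries, 194 in DMSO alone, 40 in inflachromene alone and 1873 in neither. Of the DMSO-occupied pairs, 15.9% had no inflachromene peak, against 35.5% of all DMSO peaks, counted by peak. By arrangement the share without one was 12.4% at head-to-head pairs, 19.7% at head-to-tail pairs and 20.1% at pairs not classed. Of the tail-to-tail pairs 7 had a peak in both, 7 in DMSO alone and 2 in inflachromene alone. Seen from the inflachromene list, 1039 summits met the same rule, 9.59% of that list, and 994 of them (95.7%, 94.2 to 96.8) overlapped a DMSO peak. The other 45 (4.33%) overlapped none, against 9.62% of all 10836 inflachromene peaks.

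Named by the highest DMSO fold enrichment among the 220 peaks without an inflachromene peak, 6 of 8 were head to head. LRRIQ3/FPGT (chr1:74198039-74198370) held 29 fragments (19.4 to 41.6) in DMSO at 14-fold, and the readthrough gene FPGT-TNNI3K shares this end. ANKRA2/UTP15 (chr5:73565613-73565875), the latter a gene of ribosomal RNA processing, held 34 (23.5 to 47.5). SCN11A/WDR48 (chr3:39051814-39052081) held 25 and PDZD11/KIF4A (chrX:70289808-70290077) held 21. NDUFB1/CPSF2 (chr14:92121875-92122202), a subunit gene of respiratory complex I and a gene of pre-mRNA cleavage, held 23, and KARS1/TERF2IP (chr16:75647635-75647858) held 22. The head-to-tail pairs were TMEM62/CCNDBP1 (chr15:43185196-43185466) with 32 fragments and MRI1/C19orf53 (chr19:13774308-13774476) with 24. These 8 pileups, 21 to 34 fragments, lie between the quartiles of the DMSO list (17 and 35), and inflachromene has no value below the calling threshold, so no ratio is given. By pileup instead, the tallest peak without an inflachromene peak was at CCDC85B/FOSL1 (chr11:65891306-65891516), the latter an AP-1 subunit gene, chosen after its value was seen. It held 65 fragments in DMSO over a background of 27.6, a fold enrichment of 2.31.

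The second comparison concerned the height of the 1001 peaks found in both libraries. The inflachromene pileup divided by that in DMSO had a median of 0.830 (quartiles 0.719 and 0.977), against 0.821 at the end of 1 gene and 0.833 over all peaks in both lists. The inflachromene pileup was lower at 760 (75.9%), higher at 202 and equal at 39, where 74.7% were lower over all 9796 peaks in both lists. It was lower by 1.5-fold or more at 163 (16.3%, background 18.3%) and higher by as much at 14 (1.40%, background 1.46%). By arrangement the median was 0.824 at head-to-head and 0.849 at head-to-tail pairs, and 77.4% and 70.5% were lower. Across gap classes of head-to-head pairs it stayed between 0.815 and 0.846. From the lowest backgrounds divided by the narrowest peak widths, inflachromene was inferred to have 0.966 times as many fragments as DMSO. The lowest backgrounds themselves were 0.651 in DMSO and 0.683 in inflachromene, at narrowest widths of 152 and 165 bp. The pileup ratios were corrected for neither, and the part of depth in them was not tested.

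At higher counts the share of lower peaks was larger. With a mean pileup of 50 or more, 146 of 176 shared peaks (83%) were lower in inflachromene, beside 87.5% of all 1296 such peaks, with a median ratio of 0.826 beside 0.804. In the weakest strength group the median ratio of shared peaks in both lists was 1.06 and in the strongest 0.786. A weak DMSO peak enters this ratio only where inflachromene also passed the threshold. Summits moved little between libraries: the median shift was 36 bp at shared peaks and 36 bp at the end of 1 gene, and 62.7% and 62.3% lay within 50 bp.

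**Figure D4:**
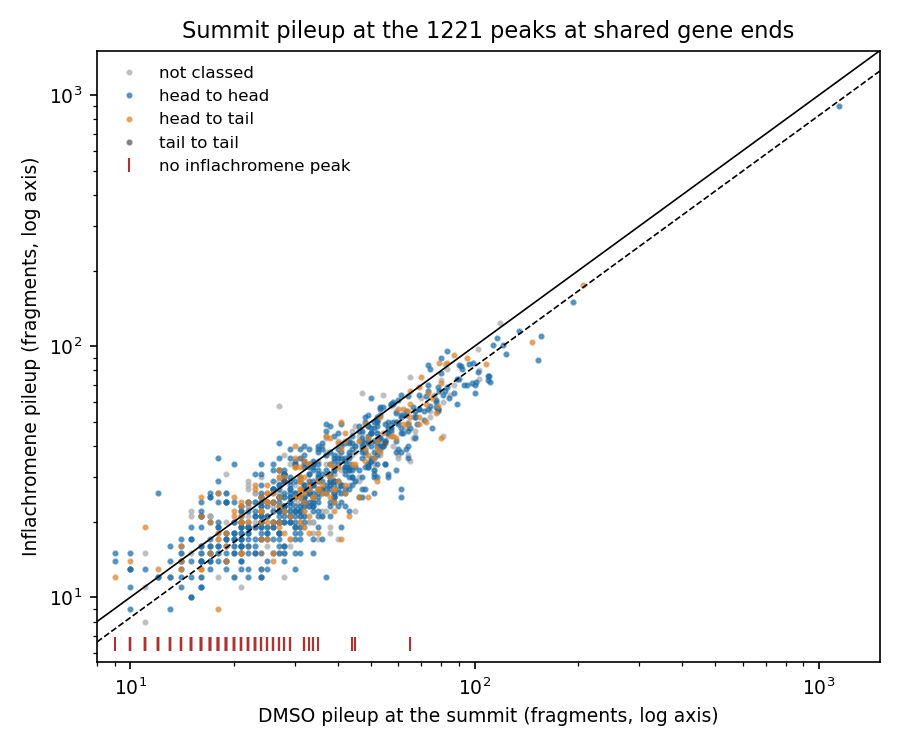
Fragments at the summit in inflachromene against DMSO, both on log axes, for each shared peak, coloured by arrangement; the solid line marks equality, the dashed line the median ratio of 0.830, and red ticks at the bottom the DMSO pileup of the 220 peaks with no inflachromene peak. Points lie mostly below equality (760 of 1001), and the highest point is PAF1/MED29 at 1139 and 907 fragments.

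Among shared peaks with a mean pileup of at least 50, the lowest ratio was at EIF4E1B/TSPAN17 (chr5:176647061-176647546), a head-to-tail pair with 80 fragments (63.4 to 99.6) in DMSO and 43 (31.1 to 57.9) in inflachromene. H2BC12/H2AC12 (chr6:27146668-27147357), genes of the core histones H2B and H2A, held 65 and 35. ERBB3/PA2G4 (chr12:56104169-56104641), a receptor kinase gene and that of a proliferation-associated protein, held 81 and 44; the summit lay 174 bp from PA2G4 and 880 bp from ERBB3. MOB3A/IZUMO4 (chr19:2096339-2096996) held 64 and 36, CIMIP5/SLC66A3 (chr2:11154979-11155568) held 64 and 37, and OSGEP/APEX1 completed these 6. Their ratios ran from 0.537 to 0.578, and choosing by the ratio favours separated intervals. The intervals still overlapped at MOB3A/IZUMO4 (49.3 to 81.7 in DMSO, 25.2 to 49.8 in inflachromene). They also overlapped at CIMIP5/SLC66A3 (49.3 to 81.7 and 26.1 to 51.0), so these 6 are not the 6 counted next. Over all 176 shared peaks of this class, the inflachromene interval lay wholly below that in DMSO at 6 (3.41%), against 6.1% of all 1296 such peaks, and wholly above it at none of either.

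The highest ratios in the same class ran from 1.15 to 1.38, and both libraries' intervals overlapped at all 6. PTK6/SRMS (chr20:63537751-63538366), neighbouring genes of related tyrosine kinases, held 47 fragments (34.5 to 62.5) in DMSO and 65 (50.2 to 82.8) in inflachromene. HSPD1/HSPE1 (chr2:197499678-197500418), the genes of the mitochondrial chaperonin and its cofactor, held 50 (37.1 to 65.9) and 62 (47.5 to 79.5). C11orf52/DIXDC1 (chr11:111926860-111927385) held 54 and 64, and EFHB/RAB5A (chr3:19946869-19947426), with the gene of an early endosome GTPase, held 83 and 96. RRAS/SCAF1 (chr19:49640111-49640819), with a RAS-related GTPase gene, held 65 and 75. BBIP1/SHOC2 (chr10:110919112-110919643), with the gene of a scaffold of RAS signalling, held 73 and 84, and its starts are only 3 bp apart.

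Of 25 well-known neighbouring pairs listed for this description, 15 had a shared peak. PPAT/PAICS, BRCA2/ZAR1L, FOXM1/RHNO1 and CCNE2/NDUFAF6 were among those annotated as overlapping, which could not enter. SURF1/SURF2, TMEM258/FEN1, METTL4/NDC80 and COL4A1/COL4A2 were among those with no DMSO summit that met the rule. NPAT/ATM (chr11:108222532-108223303), a histone transcription regulator gene and the gene of the kinase that senses DNA breaks, held 90 fragments in DMSO and 74 in inflachromene. TK1/AFMID (chr17:78187018-78187480), with the thymidine kinase gene, held 74 and 81. SARS2/MRPS12 (chr19:38930341-38931057) held 113 and 101. XPC/LSM3 (chr3:14178463-14178933), with a damage-recognition gene of nucleotide excision repair, held 56 and 45, and KBTBD3/AASDHPPT (chr11:106077256-106077744) held 81 and 64. HMGB1/USPL1 (chr13:30617445-30618022), whose HMGB1 protein is bound by inflachromene, held 46 (33.7 to 61.4) and 42 (30.3 to 56.8).

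HARS1/HARS2 (chr5:140691259-140691628) held 28 fragments in DMSO and 23 in inflachromene, RECQL/GOLT1B (chr12:21501507-21501849) held 26 and 24, and HIRA/MRPL40 (chr22:19432345-19432675) held 16 and 14. The HIRA/MRPL40 summits of both libraries lay 214 bp apart. WDR12/CARF (chr2:202912200-202912420), with a ribosome biogenesis gene, had 16 fragments in DMSO and no inflachromene peak. Some pairs carried more than 1 DMSO peak. At PRKDC/MCM4, a gap of 804 bp between the genes of a DNA repair kinase and a replicative helicase subunit, the summit 88 bp from MCM4 (chr8:47960672-47960992) held 36 and 40 fragments. The summit 38 bp from PRKDC (chr8:47960110-47960294) held 18 in DMSO and had no inflachromene peak. At TAP1/PSMB9, genes of antigen processing 487 bp apart, DMSO peaks of 26 fragments (chr6:32854039-32854299) and 16 fragments (chr6:32853563-32853823) both overlapped 1 inflachromene peak of 22. SIRT3/PSMD13, with the genes of a mitochondrial deacylase and a proteasome subunit, had peaks of 43 (chr11:236189-236609) and 21 (chr11:236765-237118) fragments in DMSO and of 32 and 20 in inflachromene. Its gap is only 44 bp, and these were not 1 peak at each start. The taller summit lay inside SIRT3, 580 bp from its start and 625 bp from PSMD13. The other lay 39 and 84 bp from these starts.

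By function, lists taken by gene symbol were set beside the 11.5% of all coding genes (2288 of 19974) that had an end at a shared peak. Histone genes stood highest with 37 of 74 (50%, 38.1 to 61.9), and 20 pairs were made of histone genes on both sides, several of which share a peak. These 37 genes lay at only 19 peaks, so they are not independent and the interval is too narrow. DNA replication and repair followed with 27 of 93 (29.0%, 20.1 to 39.4), then aminoacyl-tRNA synthetases with 9 of 34 (26.5%), oxidative phosphorylation with 31 of 118 (26.3%), mitochondrial ribosomal proteins with 20 of 77 (26.0%) and the proteasome with 12 of 50 (24.0%). Chaperones had 18 of 85 (21.2%), the mitosis list, kinesins included, 22 of 107 (20.6%) and cytosolic ribosomal proteins 17 of 83 (20.5%). Zinc finger genes had 40 of 509 (7.86%, 5.67 to 10.5). The lists also differed in gene spacing, though not in the same order. A coding neighbour's facing end lay within 2000 bp for 71.6% of the histone genes and 57.1% of the mitochondrial ribosomal protein genes. It was 47.3% for replication and repair, 17.1% for zinc finger genes and 26.7% for all. Genes with any DMSO peak numbered 79 of 93 for replication and repair and 73 of 83 for cytosolic ribosomal proteins. They were 52 of 74 for histones, 317 of 509 for zinc finger genes and 9133 of 19974 over all. The part of spacing and of peak presence in the shares at shared peaks was not tested.

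**Figure D5:**
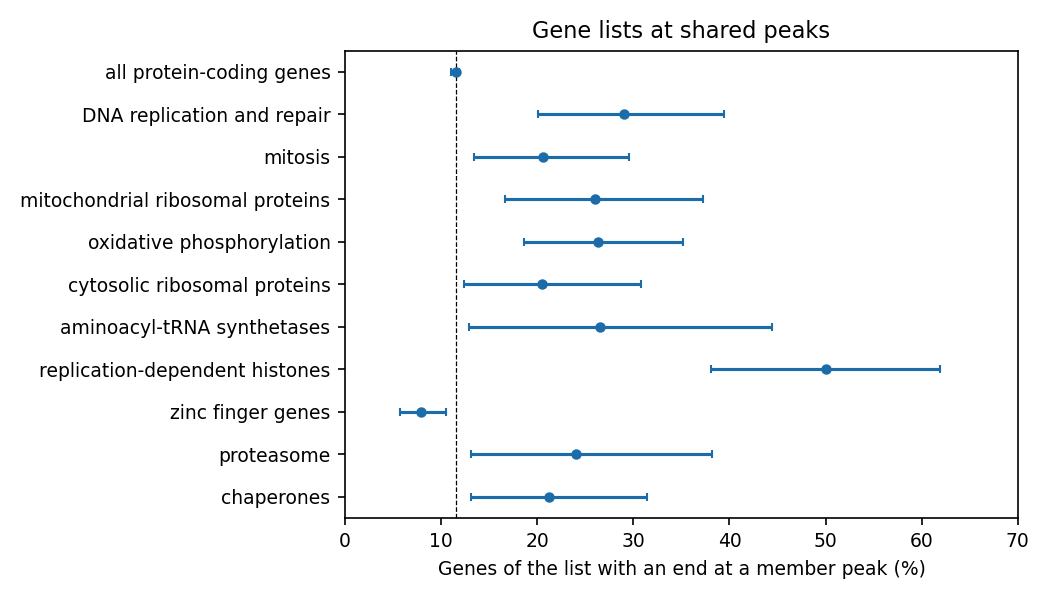
Percent of the genes of each list with an end at a DMSO peak shared by neighbouring gene ends; bars are exact 95% binomial intervals and the dashed line marks all coding genes at 11.5%. Histone genes lie highest at 50% and zinc finger genes lowest at 7.86%. The bars treat genes that share a peak as independent.

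Peaks of the lists are to be read beside all shared peaks, of which 82.0% were called again, with 75.9% of those lower and a median ratio of 0.830, and beside all DMSO peaks (64.5%, 74.7% and 0.833). Of 27 peaks at replication and repair genes, 23 were also called in inflachromene, and 17 of those were lower there, with a median ratio of 0.822. The strongest was XRCC3/ZFYVE21 (chr14:103715423-103715854), with a gene of homologous recombination, at 90 fragments in DMSO and 84 in inflachromene. Those without an inflachromene peak were FERRY3/RAD51AP1 with 16 fragments, FANCF/GAS2 with 12, and the PRKDC-side and EIF4A2/RFC4 peaks. Of 21 peaks at mitosis genes 18 were called again, 17 of them lower, with a median ratio of 0.797. CENPX/LRRC45 (chr17:82022839-82023333), with a centromere protein gene, held 99 and 86 fragments and CDC27/MYL4 (chr17:47189224-47189630), with a subunit gene of the anaphase-promoting complex, held 52 and 50. PDZD11/KIF4A, NOL8/CENPP (12 fragments) and CENPB/CDC25B (16), whose genes both belong to the mitosis list, had none in inflachromene.

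Of 23 peaks at mitochondrial ribosomal protein genes, 20 were called again with a median ratio of 0.879, among them MRPS27/PTCD2 (chr5:72320149-72320557) with 50 and 45 fragments and MRPL47/NDUFB5 (chr3:179604551-179604907), which pairs it with a complex I gene, with 42 and 33. Oxidative phosphorylation had 27 of 32 called again (median ratio 0.821), with 51 and 47 fragments at UQCC6/TDG (chr12:103965678-103965980). EMC8/COX4I1, CD320/NDUFA7, TSSK6/NDUFA13, KBTBD4/NDUFS3 and NDUFB1/CPSF2 had no inflachromene peak, at 14 to 23 fragments in DMSO. All 19 peaks at cytosolic ribosomal protein genes were called again, and 16 were lower, with a median ratio of 0.729, where all shared peaks had 82.0% called again, 75.9% lower and 0.830. RPL9/LIAS (chr4:39458785-39459101), a ribosomal protein gene beside that of lipoic acid synthase, held 27 and 22. Of 9 peaks at tRNA synthetase genes 7 were called again, all 7 lower, and KARS1/TERF2IP and GTF2H4/VARS2 (18 fragments) were not.

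Histone gene ends had taller but less enriched peaks at the median. Their 19 peaks had a median pileup of 41 fragments but a median fold enrichment of 6.79, against 29 and 9.47. A peak was called again at 18, and 10 of the 18 were lower in inflachromene, with a median ratio of 0.951 and a range from 0.538 to 2. H3C2/H2AC4 (chr6:26031865-26032290) held 52 and 39 fragments, H1-4/H2BC5 (chr6:26157643-26158322) held 58 and 44, and H2AC25/H2BC26 (chr1:228457895-228458176) held 29 in DMSO alone. Chaperone genes had 16 of 19 peaks called again and 10 of the 16 lower (median ratio 0.952), with TBCCD1/DNAJB11 (chr3:186570299-186570864) at 80 and 90 fragments. Proteasome genes had 14 of 15 called again (0.823), with PSMB1/TBP (chr6:170554090-170554438), which pairs a catalytic-core subunit gene with that of the TATA-binding protein, at 57 and 47. Zinc finger genes had 32 of 36 called again (0.812), with IRGQ/ZNF576 (chr19:43596008-43596627) at 96 and 85. A peak at a pair counts for both genes, so these lists share peaks with each other.

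The sequences of head-to-head pairs were described by 1 promoter window per pair, that of the gene at the lower coordinates, since 517 of 693 such pairs have windows that share 20 bases or more. Median GC content was 64.3% and the median number of CpG dinucleotides 27 in 682 windows with a peak, against 63.5% and 22.5 in 134 windows of pairs without a DMSO peak at either start. Single starts with a peak had 66.3% and 28, and starts without a DMSO peak 58.3% and 11. The ETS motif was present in 29.3% (25.9 to 32.9) of the occupied head-to-head windows. It was in 23.1% (16.3 to 31.2) of the unoccupied ones, 21.1% (19.9 to 22.2) of 5168 single starts with a peak, 14.2% of all 15812 coding promoters and 10.3% of all 35116 promoters of the table.

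The CCAAT motif was in 45.7% (42.0 to 49.6) of occupied head-to-head windows and 26.1% (18.9 to 34.4) of unoccupied ones, with 40.1% at single starts with a peak and 34.6% in the whole table. SP1 was in 73.0%, 59.7%, 76.0% and 45.0% of the same sets, and YY1 in 7.48%, 3.73%, 6.10% and 2.89%. The TATAAA motif was in 4.25%, 5.97%, 4.78% and 11.5%, and the AP-1 motif in 2.64%, 5.97%, 3.48% and 7.71%. The remaining motifs were E-box (9.68%, 8.96%, 10.5% and 7.26%), the NRF1 core (10.9%, 9.70%, 9.67% and 7.22%) and CRE (3.52%, 4.48%, 3.89% and 1.85%). A window with the motif on either side of a head-to-head pair went with a median pileup of 34 fragments for CCAAT (400 peaks) against 27 without it (314 peaks). For ETS the medians were 29 (247 peaks) and 31 (467 peaks). The share called again was 88.2% with and 81.8% without CCAAT, 86.4% with and 80.4% without SP1, 91.4% with and 84.7% without YY1, and 85.8% with and 85.2% without ETS. Pileup and enrichment move with some motifs too, and their part in these shares was not tested. The median ratio of the libraries was 0.824 with and 0.824 without CCAAT, and 0.821 with and 0.829 without ETS.

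At the edge of the 1000 bp rule, the last peaks inside were DENND4B/CRTC2 (13 fragments in DMSO, none called in inflachromene) at 1000 bp and HSPB6/PROSER3 (73 and 66) at 997 bp from the farther end. The first outside were KLC2/RAB1B (35 and 25) at 1002 bp and RPL7L1/PEX39 (41 and 27) at 1003 bp. The windows with ends of the most genes were at MKKS/SLX4IP, with 4 genes, where peaks of 30 and 21 fragments in DMSO and 35 and 22 in inflachromene lay in a gap of 1082 bp. CDNF/MSANTD7, with HSPA14, held 38 and 29.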

How the data were processed

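The deposited files are narrowPeak lists, 1 per library. The submitters' processing notes name MACS2, deepTools 3.5.6 and hg38. They give no aligner, no MACS2 version and no rule on duplicates. Each deposited row gives the authors' fold enrichment (a ratio), −log10 p and −log10 q at the summit, an integer score that was not used, and the summit offset. Deposited −log10 q-values started at 3.02 (DMSO) and 3.01 (inflachromene). DMSO had 15354 peaks and inflachromene 10991, of which 15186 and 10836 lay on chromosomes 1 to 22 and X.

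The whole-number pileup was the one for which MACS2's fold enrichment, (pileup + 1)/(background + 1), and its Poisson p-value matched the deposited values within 0.001. A match was found for every peak, and 12 DMSO and 4 inflachromene peaks had a second match, of which the nearer was used. The step was tested on simulated data made with the same formulas. The simulated backgrounds did not reach that of PAF1/MED29, and the simulated fold enrichments did not go as low as that of CCDC85B/FOSL1. These formulas are an inference from the values, not a statement by the authors. The relative number of fragments came from the lowest background divided by the narrowest peak width. A peak was shared between libraries at 1 bp of overlap, and 18 of the 1001 had an inflachromene peak that also overlapped another DMSO peak. Strand and start came from the RefSeq promoter table of GRCh38.p14, which lists 15812 of 19974 coding genes and has the coordinates of hg38.

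Named pairs are the 8 strongest, the 8 strongest without an inflachromene peak, the 6 lowest and 6 highest ratios at a mean pileup of 50 or more, the 4 with most genes, the 2 on either side of the window's edge and the listed pairs; examples from the gene lists are their strongest 3 peaks, or fewer, and those without an inflachromene peak, a rule added later. A few genes enter a list by symbol alone, and some pairs are not reported here. The members and lists were chosen with earlier results of these data known. Python 3.11.15, numpy 2.4.6, scipy 1.17.1 and pandas 2.3.3 were used.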

Additional observations from a re-analysis of the deposited data

How the results depend on the processing

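With the window at 500 bp, 84.8% of shared peaks had an inflachromene peak and the median fold enrichment was 10.1 in place of 9.47; at 2000 bp the latter was 9.0. Restricted to head-to-head pairs, the share was 85.5%, the median fold enrichment 10.1 and the difference from the end of 1 gene 10.4 percentage points, in place of 6.9. The share was 75.7% with overlap of at least 50% of both peaks, 79.0% with summits within 200 bp and 89.7% with lists of equal length. The differences from the end of 1 gene were then 7.04, 6.70 and 3.57 points. The 64.5% over all DMSO peaks holds for 1 bp of overlap with the full lists only. By strength group the share of shared peaks was 44.1, 59.6, 76.8, 94.9 and 98.5%, and the difference turned to -0.544 points in the strongest. The ratio of fold enrichments had a median of 0.867 in place of 0.830 for pileups. As pileup, the median strength was 29 fragments. A −log10 q of at least 5, leaving out LOC and readthrough genes or chromosome 19, counting overlapping genes, and (added after the data were seen) keeping the strongest peak of each pair or setting head-to-head peaks against starts of 1 gene kept each value within its 95% interval. No paired analysis was possible because each treatment had 1 library, and no library could be left out. Of the depth, only the relative number of fragments could be inferred.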

Other observations

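At shared gene ends 45 peaks were called in inflachromene alone. Among the strongest by fold enrichment, chosen after their values were seen, were SPTBN4/SHKBP1 (chr19:40576732-40576965) with 19 fragments (Poisson interval 11.4 to 29.7) and ATP6V1G2/NFKBIL1 (chr6:31547477-31547642) with 28 (18.6 to 40.5).

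Wider head-to-head gaps more often held several DMSO peaks. Within the gap and 1000 bp on either side, 20 of 466 pairs with a gap of 0 to 200 bp had at least 2 summits and 18 of 288 with 201 to 500 bp. It was 14 of 60 with 501 to 1000 bp and 16 of 51 with 1001 to 2000 bp. The searched length grows with the gap, and its part in these counts was not tested.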
